A study of Mus musculus with 2 samples.

Results

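The genes described here are the nuclear-encoded subunits of mitochondrial oxidative phosphorylation (OXPHOS), chosen by symbol alone. They are the mouse symbols that begin with Nduf followed by a, b, c, s or v and a digit, with Uqcr, with Atp5, or with Cox and a digit from 4 to 8, together with Sdha, Sdhb, Sdhc and Sdhd. Of 32285 genes in the count matrices, 85 matched, and 84 had at least 20 UMIs (unique molecular identifiers, each standing for 1 captured transcript) over both libraries. Cox8c, with 2 UMIs, stayed out, and Cox7b2, with 192 UMIs, was the lowest of the 84. By complex, 36 belong to complex I, 4 to complex II, 8 to complex III, 19 to complex IV and 17 to complex V. All 84 have a gene model in GENCODE M21 (GRCm38), 83 of them protein coding. For 12, among them Ndufc2, Cox4i1 and Atp5b, another gene lies over part of the model on the same strand, so their counts are less certain. Ndufa4 and its paralogue Ndufa4l2, once assigned to complex I, and Cox7a2l, which helps to join complexes into supercomplexes, were counted with complex IV.

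Complexes I to IV form the respiratory chain of the inner mitochondrial membrane. Complex I takes electrons from NADH and complex II from succinate, both pass them to ubiquinone, complex III hands them on to cytochrome c, and complex IV gives them to oxygen. Complexes I, III and IV pump protons, and complex V, the ATP synthase, uses the proton gradient to make ATP. Complex II is also an enzyme of the tricarboxylic acid cycle and is the one complex of the chain with no subunit encoded in mitochondrial DNA. Epithelial cells of the choroid plexus, which secrete cerebrospinal fluid, are known for their many mitochondria, while astrocytes are known to draw more on glycolysis than neurons do.

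The series holds 1 library of 60TM mice and 1 library of wild-type (WT) mice, both of dissociated hippocampal cells at 7 weeks of age. The 60TM mice are the GFAP-hGFAP line, which carries a human GFAP transgene on the C57BL6/J background and is the series' model of Alexander disease. GFAP is an intermediate filament protein of astrocytes, and mutations in its gene cause that disease in humans. WT mice are C57BL6/J without the transgene. Each library pools cells of 3 mice, the cells cannot be traced to a mouse, and the labels name no promoter for the transgene beyond the line's name. With 1 library for each genotype nothing was tested between genotypes, there is no replicate error, and a difference of genotype cannot be told apart from a difference between these preparations.

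The 60TM library had 8733 barcodes and 80684152 UMIs and the WT library 6861 barcodes and 63532407 UMIs. After filtering, 7574 cells with a median of 7494.5 UMIs were kept in 60TM and 6086 cells with a median of 7212 UMIs in WT. The libraries shared 20 barcode sequences, of which 16 were among the cells kept in 60TM and 17 among those kept in WT. Cells were grouped into 29 clusters, of which 22 took the name of a class from marker genes, giving 16 classes. A class name stands for cells that carry the markers of that class ("astrocyte-like" and so on). Unnamed clusters held 793 cells (10.5%) in 60TM and 381 cells (6.26%) in WT. Gfap, the gene related to the transgene, had 1248 counts per 1000000 UMIs of the class (CPM) in 60TM astrocytes and 384 CPM in WT astrocytes, counted from reads assigned to the mouse gene. Values that differed between the libraries in many classes included the choroid plexus markers found outside their own class, which summed to 444 CPM in 60TM and 30.0 CPM in WT astrocytes, and to 384 CPM in 60TM and 35.4 CPM in WT microglia. Haemoglobin UMIs stood at 1.12 CPM in 60TM and 538 CPM in WT astrocytes. Immediate early genes, known to respond to tissue dissociation, summed to 1999 CPM in 60TM and 597 CPM in WT astrocytes, with all 12 measured genes at least 25% higher in 60TM. The part of these differences in the results below was not tested.

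In the following, UMIs were summed over the cells of a class in each library and scaled to CPM. The kit counts the 3' ends of transcripts, so CPM values are not divided by gene length. Ratios are given as 60TM over WT, and the range in parentheses after a ratio is a 95% interval that covers counting error only. Genes with many UMIs have narrow intervals. Counts of members with an interval below or above 1 are given without the share of all genes, so they do not set the members apart. Ratios, counts and medians of members are limited to genes whose UMIs in the class came to 100 or more over both libraries, and a gene was counted as higher or lower where its CPM in one library was at least 25% above that in the other.

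The choroid plexus held far more nuclear-encoded OXPHOS mRNA than any other class in both libraries. The 84 genes took 7.18% of all UMIs of choroid plexus cells in 60TM (242 cells) and 8.22% in WT (60 cells). Microglia stood last, with 1.30% in 60TM (2493 cells) and 1.249% in WT (2096 cells). The level of the choroid plexus was thus 5.51 times (5.48 to 5.54) that of microglia in 60TM and 6.59 times (6.53 to 6.64) in WT. Astrocytes ranked number 4 in both libraries, with 2.82% in 60TM (1752 cells) and 2.99% in WT (894 cells). Pericytes (2.82% in 60TM and 3.14% in WT) and Cajal-Retzius cells, early-born neurons of the outer hippocampal layer (2.99% in 60TM and 3.01% in WT), stood close to them. The leading genes of the pericyte cluster included the fibroblast markers Dcn and Col1a2 beside pericyte markers. Only 28 of its 56 cells in 60TM and 27 of 69 in WT had no fibroblast UMI. Its values are therefore those of a mixed cluster. Oligodendrocytes, the myelinating cells, took 1.98% in 60TM and 1.99% in WT, and border macrophages 1.78% in 60TM and 1.68% in WT. The other 9 classes lay between 2.37% and 2.66% in 60TM and between 2.15% and 2.80% in WT. Among these 9, neighbours in the order differed by little and their places moved between the libraries: neurons ranked 6 of 16 in 60TM and 13 of 16 in WT, and ependymal cells 8 in 60TM and 5 in WT.

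**Figure D1:**
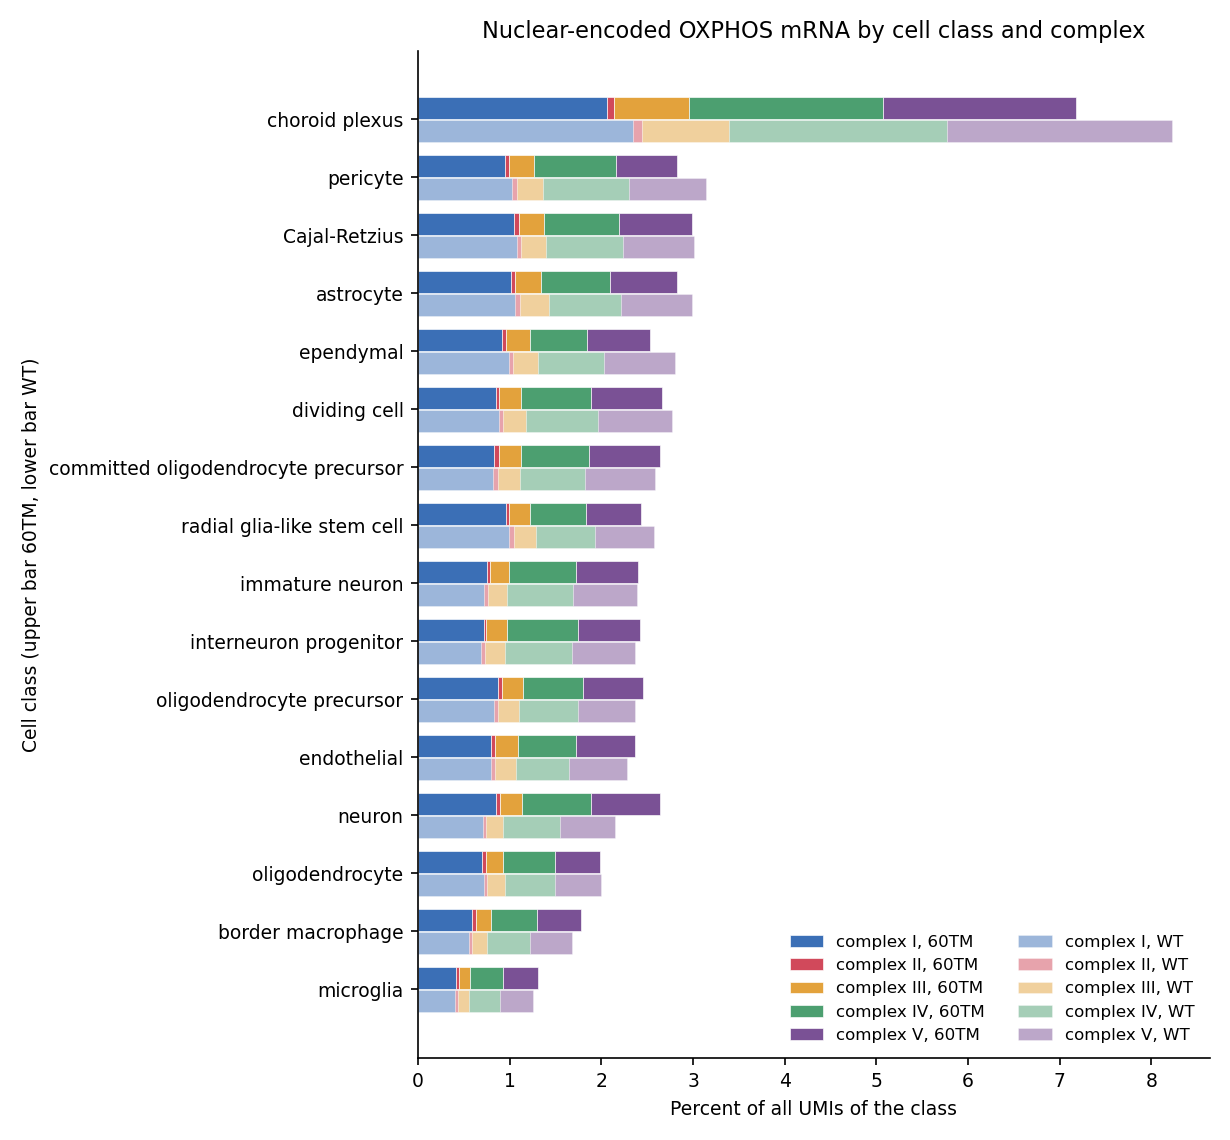
Share of all UMIs of a cell class that the 84 nuclear-encoded OXPHOS genes took, in percent, split by complex, with 60TM as the upper and WT as the lower bar of each class. Choroid plexus cells reached 7.18% in 60TM and 8.22% in WT, microglia 1.30% in 60TM and 1.249% in WT.

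The make-up of this mRNA by complex was similar across classes. Complex I genes gave 28.7% to 39.3% of the members' UMIs in 60TM and 28.5% to 38.6% in WT, with the choroid plexus lowest and the radial glia-like stem cells, the neural stem cells of the dentate gyrus, highest in both. Complex II gave 1.10% to 2.12% in 60TM and 1.16% to 2.52% in WT, with the choroid plexus lowest and microglia highest. Complex III stood highest in the choroid plexus, at 11.4% in 60TM and 11.6% in WT.

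Among the nuclear-encoded genes of complexes I, III and IV, those with the most UMIs in astrocytes were small accessory subunits. The mitochondrially encoded subunits of these complexes were not part of this ranking. The highest complex I gene was Ndufc2, an accessory subunit of the membrane arm, at 903 CPM in 60TM and 883 CPM in WT. The lowest was Ndufs1, the largest core subunit of the electron-carrying arm, at 78.5 CPM in 60TM and 87.0 CPM in WT. Cox8a, a small subunit of complex IV, was the highest member of all in astrocytes (1366 CPM in 60TM and 1347 CPM in WT) and in the choroid plexus (4142 CPM in 60TM and 4810 CPM in WT). Microglia differed: their highest complex IV gene was Cox4i1, the common form of the regulatory subunit 4, at 633 CPM in 60TM and 562 CPM in WT. Their highest complex V gene was Atp5e, the epsilon subunit, at 442 CPM in 60TM and 429 CPM in WT. Complex III was led by Uqcr11, a small membrane subunit, in astrocytes (578 CPM in 60TM and 576 CPM in WT), oligodendrocytes (383 CPM in 60TM and 381 CPM in WT) and the choroid plexus, and by Uqcrh, the hinge protein near cytochrome c1, in microglia (361 CPM in 60TM and 335 CPM in WT). Ndufa13, an accessory subunit known also as GRIM-19, led complex I in microglia at 240.1 CPM in 60TM and 241 CPM in WT. In some places the leading gene changed with the library: complex I was led by Ndufa13 in 60TM and Ndufa11 in WT choroid plexus cells and by Ndufb9 in 60TM and Ndufa13 in WT oligodendrocytes, and complex IV of oligodendrocytes by Cox4i1 in 60TM and Cox6c in WT. Sdhb, the iron-sulfur subunit, led complex II in astrocytes, microglia and oligodendrocytes of both libraries, whereas Sdhc, a membrane anchor, led it in the choroid plexus, at 273 CPM in 60TM and 349 CPM in WT.

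The mitochondrial genome encodes 13 further subunits, and their mRNA did not follow the nuclear-encoded level across classes. It took 5.32% of UMIs in 60TM and 3.93% in WT choroid plexus cells, 5.01% in 60TM and 4.42% in WT astrocytes, and 1.79% in 60TM and 1.56% in WT microglia. Set against the nuclear-encoded members, that is a ratio of mitochondrial to nuclear UMIs of 0.741 in 60TM and 0.477 in WT in the choroid plexus, against 1.78 in 60TM and 1.48 in WT in astrocytes. Oligodendrocytes had 1.86 in 60TM and 1.87 in WT, and Cajal-Retzius cells 0.516 in 60TM and 0.508 in WT. Cells with over 15% mitochondrial UMIs had been removed.

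The comparison of the genotypes asks whether this machinery differed in the disease model, by complex and by class. In astrocytes the summed level of the 84 genes was slightly lower in 60TM, 28195 CPM against 29885 CPM in WT, a ratio of 0.943 (0.938 to 0.949). In microglia it was slightly higher, 13024 CPM in 60TM against 12488 CPM in WT (1.04, 1.04 to 1.05), and in oligodendrocytes it was nearly equal, 19786 CPM in 60TM against 19932 CPM in WT (0.993, 0.988 to 0.997). Larger differences stood in classes of fewer cells: the choroid plexus (0.873, 0.866 to 0.879) was lower in 60TM, and neurons (1.23, 1.21 to 1.252) were higher. Pericytes had a summed ratio of 0.897 (0.868 to 0.928), but the median log2 ratio of their members, -0.21, was 0.10 with doublets kept and 0.19 among pericytes with no fibroblast UMI, so no direction is given for them.

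Few single genes passed this 25% limit in the large classes. In astrocytes 0 of 81 members were higher and 7 lower in 60TM (2 lower with scaling by the median ratio of all genes and 1 lower with trimmed means), while of all 10481 genes with as many UMIs 12.6% were higher and 21.8% lower. At 1.5-fold no member was past the limit in either direction there, against 5.83% of all genes higher and 6.82% lower. In microglia 1 of 78 members was higher and 0 were lower, against 6.56% and 10.3% of all genes, and in oligodendrocytes 0 of 78 were higher and 0 lower, against 7.45% and 8.6% of all genes. The members' shares were thus below those of all genes in these 3 classes. In the choroid plexus 0 of 80 were higher and 10 lower, against 21.9% and 13.7% of all genes. In radial glia-like stem cells 0 of 79 were higher and 9 lower, against 11.9% and 16.8%. Neurons had 33 of 78 higher and 2 lower, against 13% and 17.1%, and pericytes 4 of 60 higher and 21 lower, against 24.2% and 28.6%. The pericyte count of 21 was 2 with doublets kept and 0 of 6 among pericytes with no fibroblast UMI, and fibroblast markers summed to 1349 CPM in 60TM and 3670 CPM in WT pericytes. Counting both directions, 1 of 74 passed in Cajal-Retzius cells (20.1% of all genes), 12 of 67 in border macrophages (32.1%), 1 of 77 in committed oligodendrocyte precursors (20.9%), 1 of 77 in dividing cells (24.4%), 4 of 77 in endothelial cells (28.2%), 1 of 77 in immature neurons (16.2%) and 4 of 77 in oligodendrocyte precursors (21.3%). Counting error is smaller for genes with many UMIs, and its part in these shares was not tested.

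**Figure D2:**
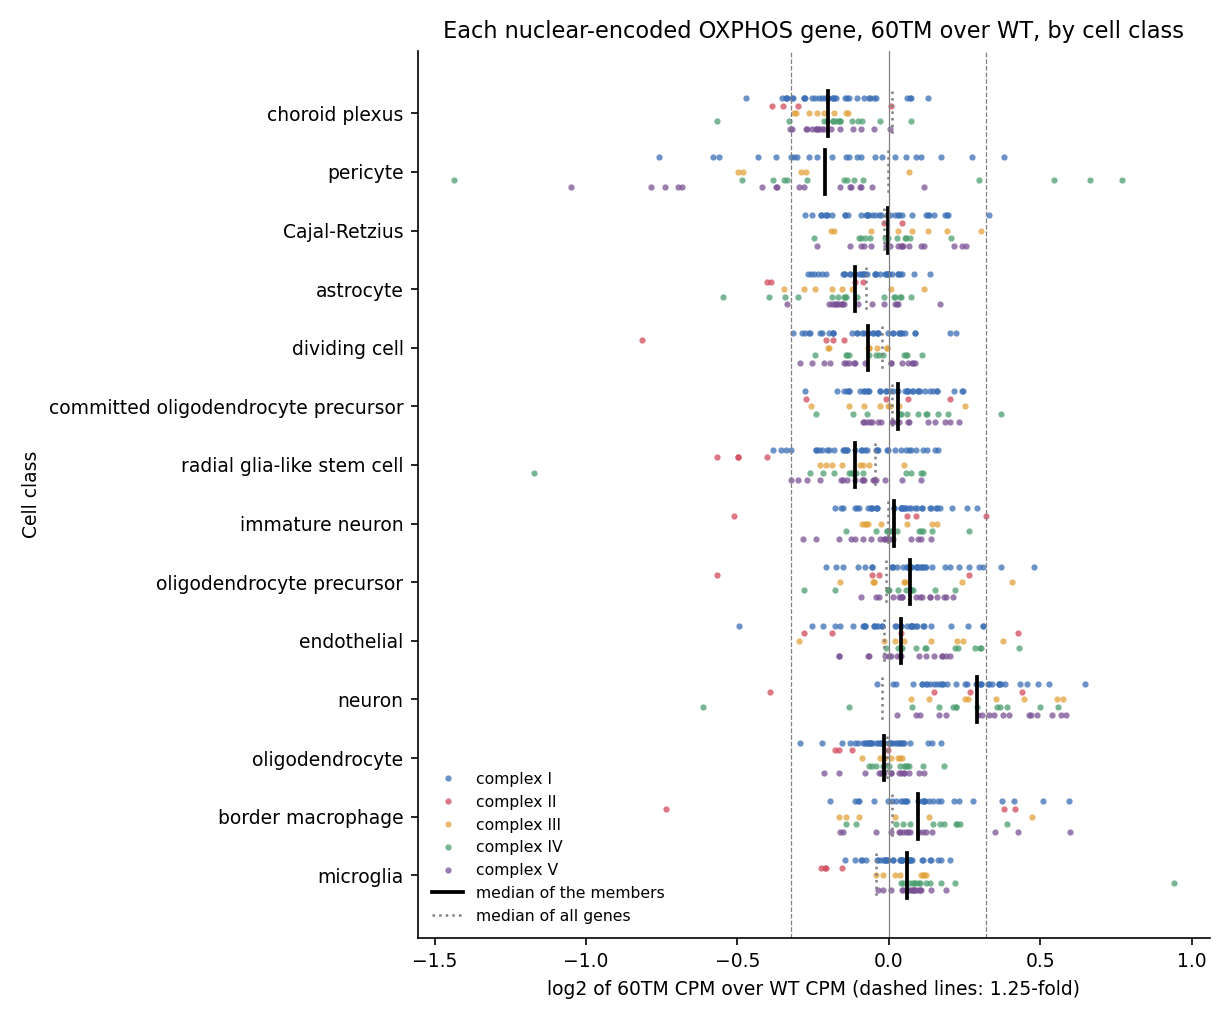
Log2 of 60TM CPM over WT CPM for each member with at least 100 UMIs in a class (points, coloured by complex), with the median of the members (black bar) and of all genes (dotted bar). The members' median stands to the right of that of all genes in neurons (0.29) and to the left of it in the choroid plexus (-0.20). The pericyte median (-0.21) was 0.10 with doublets kept and 0.19 without fibroblast UMIs, and the neuron median was 0.00016 with cells thinned to 2000 UMIs.

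Complex II was lower in 60TM in astrocytes, microglia, oligodendrocytes and radial glia-like stem cells alike, and it was the complex with the lowest sum ratio in each of the 4 classes. Its summed level was 519 CPM in 60TM and 591 CPM in WT astrocytes, a ratio of 0.878 (0.844 to 0.914). In microglia it was 276 CPM in 60TM and 315 CPM in WT (0.874, 0.839 to 0.911), although complexes I, III, IV and V were all slightly higher in 60TM microglia, with ratios of 1.02 to 1.08. Oligodendrocytes had 359 CPM in 60TM and 386 CPM in WT (0.930, 0.898 to 0.963). The largest gap was in radial glia-like stem cells, with 393 CPM in 60TM and 551 CPM in WT (0.713, 0.647 to 0.786). The median log2 ratio of the 4 genes was -0.25 in astrocytes, -0.21 in microglia, -0.14 in oligodendrocytes and -0.50 in radial glia-like stem cells, while that of all genes in these classes was -0.08, -0.04, -0.01 and -0.05.

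The 4 subunits have separate roles. Sdha carries the flavin that oxidises succinate, Sdhb holds the iron-sulfur clusters, and Sdhc and Sdhd anchor the enzyme in the membrane and bind ubiquinone. In astrocytes the anchors differed most. Sdhc stood at 85.3 CPM in 60TM (1292 UMIs) and 113 CPM in WT (665 UMIs), a ratio of 0.757 (0.689 to 0.832). Sdhd stood at 61.0 CPM in 60TM and 79.9 CPM in WT (0.763, 0.682 to 0.855). The catalytic pair was nearer to WT, with Sdha at 149 CPM in 60TM and 161 CPM in WT (0.926, 0.858 to 1.0003) and Sdhb at 224 CPM in 60TM and 238 CPM in WT (0.942, 0.885 to 1.003).

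In microglia all 4 genes were lower in 60TM by a similar amount, each with an interval below 1. Sdha stood at 82.4 CPM in 60TM and 96.1 CPM in WT (0.857), Sdhb at 95 CPM in 60TM and 106 CPM in WT (0.899), Sdhc at 47.8 CPM in 60TM and 55.2 CPM in WT (0.867) and Sdhd at 50.3 CPM in 60TM and 58.2 CPM in WT (0.864). Radial glia-like stem cells also had all 4 intervals below 1: Sdha was at 133 CPM in 60TM and 188 CPM in WT (0.708), Sdhb at 140 CPM in 60TM and 198 CPM in WT (0.708), Sdhc at 76.3 CPM in 60TM and 101 CPM in WT (0.757) and Sdhd at 42.8 CPM in 60TM and 63.4 CPM in WT (0.675). In oligodendrocytes Sdha did not differ beyond counting error (114 CPM in 60TM and 115 CPM in WT), and the ratios of Sdhb, Sdhc and Sdhd were 0.919, 0.883 and 0.891, each with an interval below 1. With every cell thinned to 2000 UMIs the microglial Sdhc ratio was 1.07 and the astrocyte Sdhb ratio 1.01, and the other complex II ratios of astrocytes, microglia and radial glia-like stem cells stayed below 1 under that setting.

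The other classes did not share one direction. Sdhd was lower in 60TM dividing cells (55.0 CPM in 60TM and 96.8 CPM in WT, a ratio of 0.569, 0.419 to 0.769), in oligodendrocyte precursors (0.675, 0.476 to 0.956, and 0.993 with cells thinned to 2000 UMIs) and in immature neurons (0.701), with intervals below 1. In neurons Sdhb was higher in 60TM, at 158 CPM against 116 CPM in WT (1.36, 1.08 to 1.72), and Sdhc was 0.762 with an interval of 0.546 to 1.07. In the choroid plexus Sdha stood at 184 CPM in 60TM and 183 CPM in WT. Sdhb, Sdhc and Sdhd had ratios of 0.813, 0.784 and 0.766, each with an interval below 1. Complex II was the complex with the lowest sum ratio there as well. In pericytes none of the 4 genes reached 100 UMIs. Each genotype being 1 library, a shift shared by several classes is a shift between the same pair of preparations and not a repeat of the result.

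**Figure D3:**
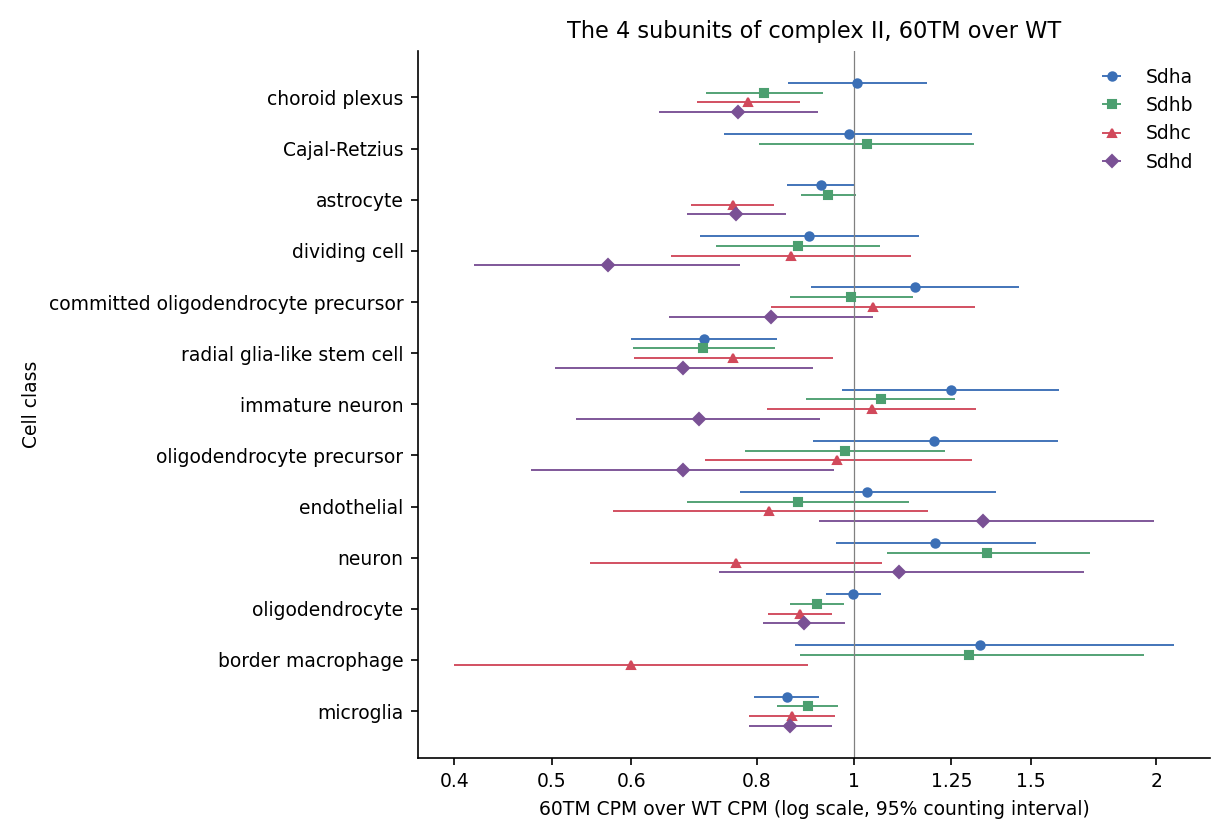
Ratio of 60TM CPM over WT CPM (log axis) with its 95% counting interval for each complex II gene that reached 100 UMIs in a class. All intervals lie below 1 in microglia and radial glia-like stem cells, and those of Sdhc (0.757) and Sdhd (0.763) do in astrocytes.

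The DNA before the start of 2 complex II genes is shown because the nuclear respiratory factor NRF1, a known activator of many nuclear-encoded OXPHOS genes, has a written recognition sequence that can be looked up in it. The stretches come from the RefSeq promoter table of GRCm38.p6, run 5′ to 3′ on the strand of the gene, and stop where the GENCODE gene begins. Capitals in Sdha mark the NRF1 letters GCGCANGCG, which begin 98 and 55 bases before the RefSeq start, with another match past the printed end, and capitals in Sdhb mark the SP1 letters GGGGCGGGG on the other strand, 134 bases before it. They lie at chr13:74350281-74350490 (minus strand) and chr4:140961021-140961202 (plus strand).
Sdha: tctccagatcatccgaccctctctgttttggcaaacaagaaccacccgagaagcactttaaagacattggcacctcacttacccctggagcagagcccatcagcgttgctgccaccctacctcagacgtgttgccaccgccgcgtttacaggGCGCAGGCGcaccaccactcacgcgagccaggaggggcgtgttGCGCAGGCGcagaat
Sdhb: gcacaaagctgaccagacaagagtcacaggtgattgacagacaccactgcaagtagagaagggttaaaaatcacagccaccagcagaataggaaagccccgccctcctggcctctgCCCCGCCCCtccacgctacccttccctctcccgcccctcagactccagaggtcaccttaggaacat
Sdhd held the NRF1 letters as well, 79 bases before its start, and Sdhc was not in the table.

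Over all members, 69 of 84 had a window of 250 bases before to 50 bases after the start. The NRF1 letters, on either strand, stood in 27.5% of these windows and in 6.47% of the windows of all 27025 genes in the table. By complex they were in 8 of 32 windows of complex I, 2 of 3 of complex II, 2 of 5 of complex III, 1 of 14 of complex IV and 6 of 15 of complex V. The YY1 letters AAGATGGCG stood in 8.70% of members and 1.495% of all genes, the GABPA letters CCGGAAGT in 7.25% and 4.00%, the ERR letters TCAAGGTCA in 2.90% and 0.407%, and the SP1 letters in 15.9% and 11.6%. The TATA letters TATAAAA were in 4.35% of members and 5.78% of all genes. A match of letters is a description of the sequence and was not related to the levels.

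In astrocytes complexes III and V were lower in 60TM by more than complexes I and IV. Sum ratios were 0.955 (0.946 to 0.964) for complex I, 0.921 (0.905 to 0.937) for complex III, 0.960 (0.95 to 0.971) for complex IV and 0.925 (0.915 to 0.935) for complex V. Of 81 members, 62 had a ratio below 1, of which 41 had an interval below 1, and 4 had an interval above 1. The median log2 ratio of all members was -0.11, close to the -0.08 of all 10481 genes, so genes at large leaned the same way. The clusters that made up the class also differed, with 45.8% of 60TM and 3.58% of WT astrocytes in a cluster led by Lcn2. Scaling by the median ratio of all genes moves every astrocyte log2 ratio by 0.08 and scaling by trimmed means by 0.09. Set against that lean, the median log2 ratio of complex I (-0.08) was that of all genes, and the medians of complexes III (-0.17), IV (-0.14) and V (-0.16) were lower; under scaling by trimmed means they were 0.01 for complex I and -0.09, -0.06 and -0.07 for the other 3.

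Core subunits of complex I carry electrons from NADH towards ubiquinone. Ndufs3, Ndufs7 and Ndufv2 had ratios of 0.991 to 1.0003, Ndufv1 had 1.02 and Ndufs1 0.903, each with an interval that included 1. Ndufs8, a core subunit that holds iron-sulfur clusters, was lower, at 142 CPM in 60TM and 169 CPM in WT (0.842, 0.781 to 0.909). The accessory subunits ran from Ndufb2 (238 CPM in 60TM and 286 CPM in WT, 0.832) to Ndufa10 (155 CPM in 60TM and 141 CPM in WT, 1.10, 1.02 to 1.19). Ndufa7 was at 421 CPM in 60TM and 397 CPM in WT (1.06, 1.01 to 1.11), and Ndufc2 had a ratio of 1.02 (0.990 to 1.06).

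In complex III 1 of 8 members, Uqcrc1, was counted as lower in 60TM astrocytes, and 6 had an interval below 1. Uqcrc1, a core protein of the matrix side, stood at 162 CPM in 60TM and 205 CPM in WT (0.786, 0.734 to 0.843), and Uqcrfs1, the Rieske iron-sulfur protein, at 241 CPM in 60TM and 293 CPM in WT (0.823, 0.777 to 0.872). Uqcrc2, the other core protein, had a ratio of 0.918 (0.858 to 0.983). Uqcrb, Uqcrh and Uqcr10 had ratios of 0.845, 0.879 and 0.898, while Uqcr11 had 1.004 (0.965 to 1.05). Uqcrq, a small subunit beside cytochrome b, was higher, at 462 CPM in 60TM and 426 CPM in WT (1.08, 1.04 to 1.14).

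In complex IV the regulatory subunit Cox4i1 was at 1078 CPM in 60TM and 1052 CPM in WT (1.02, 0.995 to 1.06), and Cox8a and Cox7c, each with a ratio of 1.01, stood as close to WT. Cox7b, a small subunit, was lower, at 334 CPM in 60TM and 411 CPM in WT (0.812, 0.773 to 0.852), and Cox7a2, Cox5a and Cox5b had ratios of 0.878, 0.902 and 0.904. Of the isoform genes, 3 at low level were counted as lower: Cox7b2 (5.68 CPM in 60TM and 8.31 CPM in WT, 0.684, 0.476 to 0.992), Cox6b2 (24.0 CPM in 60TM and 30.5 CPM in WT, 0.788) and Cox7a1 (5.42 CPM in 60TM and 7.12 CPM in WT, 0.760, with an interval of 0.518 to 1.13).

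Of the 5 genes of the catalytic head of complex V and its central stalk, 1 was counted as lower in 60TM astrocytes, and 4 had an interval below 1. Atp5b, the catalytic beta subunit, stood at 494 CPM in 60TM and 624 CPM in WT (0.792, 0.761 to 0.824), the alpha subunit Atp5a1 at 387 CPM in 60TM and 436 CPM in WT (0.888), and the gamma subunit Atp5c1 at 342 CPM in 60TM and 392 CPM in WT (0.872). The delta subunit Atp5d stood at 404 CPM in 60TM and 457 CPM in WT (0.884), and the epsilon subunit Atp5e at 517 CPM in 60TM and 508 CPM in WT (1.02, 0.977 to 1.06). Atp5b was the highest complex V gene in WT astrocytes, and in 60TM Atp5l, a subunit of the membrane part, was, at 544 CPM in 60TM against 565 CPM in WT. Atp5g1, one of 3 genes for the same c-ring protein, was higher, at 331 CPM in 60TM and 295 CPM in WT (1.12, 1.06 to 1.19), while its partners Atp5g2 and Atp5g3 had 1.01 and 0.898.

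**Figure D4:**
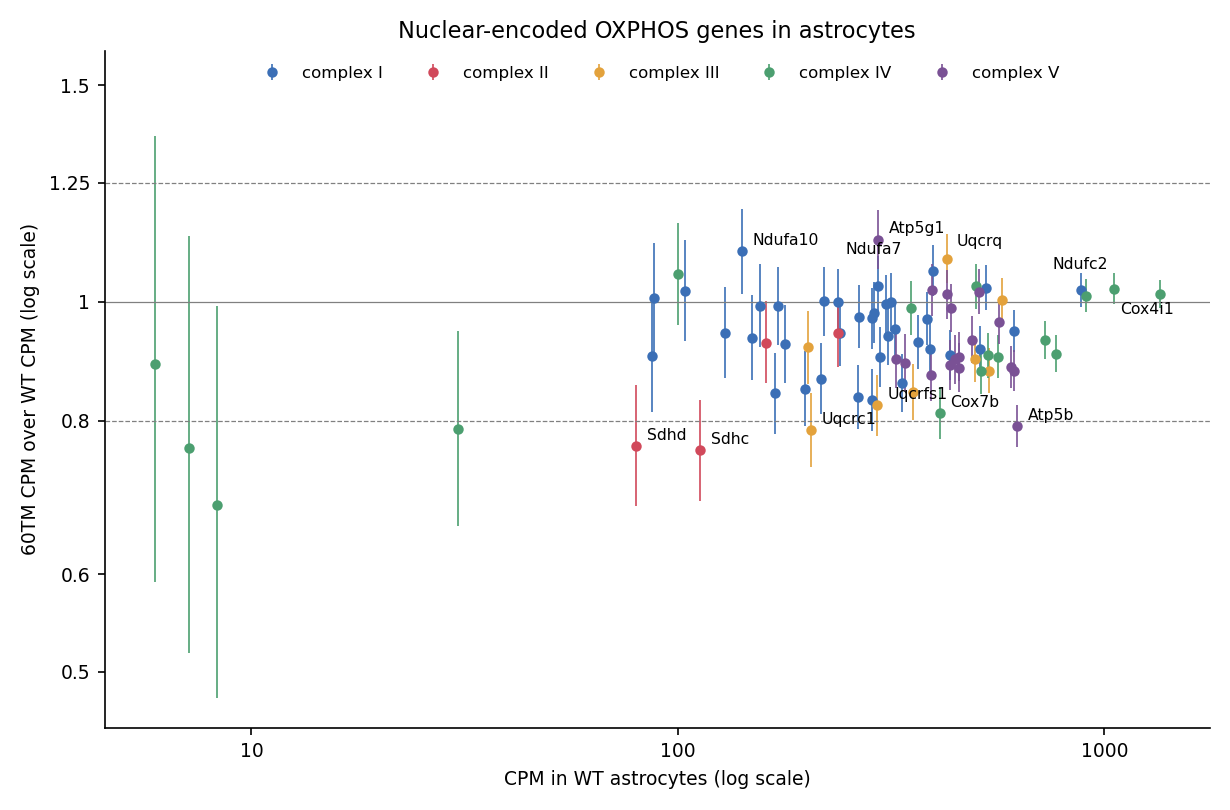
Ratio of 60TM CPM over WT CPM in astrocytes (log axis) with its 95% counting interval, against CPM in WT astrocytes (log axis), for 81 members coloured by complex. The labelled genes are the 6 highest and 6 lowest by the interval bound nearest to 1, the lowest of them in ratio being Sdhc (0.757) and Sdhd (0.763). Points without a label include Cox7b2 (0.684) and Cox7a1 (0.760), which have few UMIs and wide intervals, and no member is at least 25% higher in 60TM.

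Astrocytes fell into 3 clusters whose shares of the class differed between the libraries, and the member values depended on the cluster. A cluster led by Lcn2, Cxcl5 and C3, genes of reactive astrocytes, held 45.8% of 60TM astrocytes (802 cells) and 3.58% of WT astrocytes (32 cells). A cluster led by Hsd11b1 and Grin2c held 36.5% in 60TM (640 cells) and 40.7% in WT (364 cells), and one led by Agt and Hes5 held 17.7% in 60TM (310 cells) and 55.7% in WT (498 cells). Since a state found almost in 1 library only cannot be told apart from that library, the Lcn2 cluster was compared mainly within 60TM.

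In the Agt cluster OXPHOS mRNA was lower in 60TM across all complexes, with 2.67% of UMIs (2.65 to 2.69) in 60TM and 3.16% (3.14 to 3.18) in WT, a ratio of 0.845 (0.837 to 0.853). Of 78 members 75 had a ratio below 1 and 61 an interval below 1, and the median log2 ratio was -0.26, while that of all genes was 0.04. At the 25% limit 0 members were higher and 25 lower, against 17.8% and 10.9% of all genes. Sum ratios of the complexes ran from 0.824 (complex III) to 0.851 (complex V). Uqcrc1 stood at 145 CPM in 60TM and 221 CPM in WT (0.654, 0.575 to 0.743), Sdhc at 81.5 CPM in 60TM and 117 CPM in WT (0.697), Ndufc2 at 679 CPM in 60TM and 886 CPM in WT (0.767), Atp5mpl at 274 CPM in 60TM and 366 CPM in WT (0.748) and the isoform gene Cox6b2 at 12.7 CPM in 60TM and 25.9 CPM in WT (0.489, 0.313 to 0.743). Ndufa10 (1.07) and Atp5f1 (0.967) were towards the other end, with intervals that include 1.

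The Hsd11b1 cluster showed no such lean. It had 2.62% in 60TM and 2.64% in WT, a ratio of 0.995 (0.985 to 1.01), and a median log2 ratio of -0.01, above the -0.07 of all genes. At the 25% limit 0 of 78 were higher and 3 lower, against 9.33% and 23.2% of all genes. The median turned to 0.06 when scaled by the median ratio of all genes. Ndufa10 (154 CPM in 60TM and 125 CPM in WT, 1.24, 1.07 to 1.44), Atp5g1 (285 CPM in 60TM and 237 CPM in WT, 1.203), Cox8a (1263 CPM in 60TM and 1126 CPM in WT, 1.12) and Ndufc2 (994 CPM in 60TM and 888 CPM in WT, 1.12) were higher in 60TM, and Ndufs6 (0.758), Ndufb2 (0.788), Atp5b (0.886) and Ndufa13 (0.899) were lower. Of complex II, Sdha was 0.846 (0.740 to 0.969) and Sdhc 0.824 (0.689 to 0.988), while Sdhd was 0.990 (0.786 to 1.253). Cells of the Hsd11b1 cluster had a median of 6584.5 UMIs in 60TM and 4847 in WT. In the Agt cluster the medians were closer, 7225 in 60TM and 7078.5 in WT. The part of depth in the contrast of these clusters was not tested. Clustering without the members gave no cluster led by Hsd11b1, so the contrast was not repeated there.

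Within the 60TM library, astrocytes of the Lcn2 cluster held more OXPHOS mRNA than the other 950 astrocytes, 2.97% against 2.64% of UMIs, a ratio of 1.12 (1.12 to 1.13). Of 78 members 70 had a ratio above 1 and 52 an interval above 1. The members' median log2 ratio was 0.15, and that of all genes was -0.04. Past the 25% limit, 6 members were higher and 0 lower in the Lcn2 cluster. Shares of all genes are not given for this comparison, so these counts do not set the members apart. Uqcrq stood at 533 CPM in the Lcn2 cluster and 375 CPM in the other 60TM astrocytes (1.42, 1.35 to 1.49), Ndufa1 at 139 CPM and 99.9 CPM (1.40), Atp5e at 586 CPM and 433 CPM (1.35), Ndufa7 at 476 CPM and 352 CPM (1.35) and Cox4i1 at 1185 CPM and 945 CPM (1.254). Ndufs1 was lower, at 70.6 CPM in the Lcn2 cluster and 88.3 CPM in the others (0.80, 0.713 to 0.898), as were Cox7b (0.899) and Uqcrfs1 (0.904). Clusters were made from the expression of the same cells, so these values describe the cluster. When 60TM astrocytes were divided by their own Lcn2 UMIs (271 cells with at least 3 in 10000 against 1481), the shares were 2.94% and 2.79%, a ratio of 1.05. The cells of the Lcn2 cluster were also deeper, with a median of 9443 UMIs in 60TM against 6584.5 in the Hsd11b1 and 7225 in the Agt cluster. Its 32 WT cells took 3.16%.

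Of the 6 astrocyte genes named as highest in 60TM, 5 had a ratio below 1 without this cluster. There Atp5g1 had a ratio of 0.987, Uqcrq 0.885, Cox4i1 0.910, Ndufa7 0.896 and Ndufc2 0.998, and the complex I median was -0.17. Ndufa10 had a ratio of 1.11 without it and stayed above 1 under all 15 alternatives, from 1.02 to 1.17. Sdhc, Uqcrc1 and Atp5b stayed lower without it, over a range of all alternatives of 0.735 to 0.803 for Sdhc, 0.742 to 0.835 for Uqcrc1 and 0.790 to 0.841 for Atp5b.

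In microglia the members other than complex II leaned up in 60TM. The median log2 ratio of 78 members was 0.06, and that of all genes was -0.04. Of the members 30 had an interval above 1 and 6 below. Sum ratios were 1.02 (1.01 to 1.03) for complex I, 1.05 (1.03 to 1.07) for complex III, 1.08 (1.06 to 1.09) for complex IV and 1.05 (1.04 to 1.06) for complex V. Cox6a2, the form of subunit 6a known from heart and skeletal muscle, was the one gene past the limit, at 9.65 CPM in 60TM (181 UMIs) and 5.03 CPM in WT (67 UMIs), a ratio of 1.92 (1.44 to 2.58). It made up 5.35% of Cox6a1 and Cox6a2 UMIs together in 60TM and 3.02% in WT microglia. Cox7b stood at 160 CPM in 60TM and 137 CPM in WT (1.16, 1.10 to 1.23), Atp5l at 281 CPM in 60TM and 246 CPM in WT (1.14, 1.09 to 1.19) and Cox4i1 at 633 CPM in 60TM and 562 CPM in WT (1.13, 1.09 to 1.16). Microglia also differed in handling markers, with immediate early genes at 17918 CPM in 60TM and 12623 CPM in WT, and the cluster led by Ccl4 and Atf3 held 39.2% of 60TM and 21.04% of WT microglia. In that cluster the members took 1.33% in 60TM and 1.30% in WT, and in the other 2 microglial clusters 1.254% and 1.30% in 60TM and 1.18% and 1.27% in WT.

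In oligodendrocytes the 2 libraries were nearly equal, with a median log2 ratio of -0.02 for the members and -0.01 for all genes. The lowest genes were Ndufs4, an accessory subunit of complex I (77.6 CPM in 60TM and 95 CPM in WT, 0.817, 0.758 to 0.879), Ndufa1 (82.6 CPM in 60TM and 96.2 CPM in WT, 0.859), Atp5e (350 CPM in 60TM and 406 CPM in WT, 0.863) and Atp5g2 (346 CPM in 60TM and 388 CPM in WT, 0.892). The highest were Cox7b (210 CPM in 60TM and 185 CPM in WT, 1.13), Ndufv2 (130 CPM in 60TM and 115 CPM in WT, 1.13), Ndufa6 (183 CPM in 60TM and 166 CPM in WT, 1.10) and Cox4i1 (863 CPM in 60TM and 799 CPM in WT, 1.08). Cox7b and Cox4i1 were thus higher in 60TM in both microglia and oligodendrocytes. Cox7b was also higher in committed oligodendrocyte precursors (410 CPM in 60TM and 318 CPM in WT, 1.29, 1.15 to 1.45) and immature neurons (374 CPM in 60TM and 312 CPM in WT, 1.2, 1.07 to 1.34). Neurons (1.41, 1.24 to 1.61) and endothelial cells (1.24, 1.0005 to 1.53) had higher Cox7b as well. Cox4i1 was also higher in neurons (1.29, 1.17 to 1.42) and immature neurons (1.10, 1.03 to 1.18). Cox7b was lower in astrocytes and radial glia-like stem cells (268 CPM in 60TM and 284 CPM in WT), and both genes were lower in the choroid plexus.

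In the choroid plexus all complexes were lower in 60TM and the mitochondrially encoded genes were higher. Sum ratios ran from 0.832 (complex II) to 0.892 (complex IV), 61 of 80 members had an interval below 1 and none above, and the median log2 ratio was -0.20, against 0.01 for all genes. At the 25% limit 10 of 80 members were lower, against 13.7% of all genes. Atp5g1 stood at 2632 CPM in 60TM and 3140 CPM in WT (0.838, 0.806 to 0.871), Cox8a at 4142 CPM in 60TM and 4810 CPM in WT (0.861) and Uqcr11 at 1772 CPM in 60TM and 2128 CPM in WT (0.833). Cox7a1, the muscle form of subunit 7a, was lowest, at 105 CPM in 60TM and 156 CPM in WT (0.674, 0.564 to 0.810), and Ndufb9 was highest, at 683 CPM in 60TM and 655 CPM in WT (1.04, 0.960 to 1.14). Of the 13 mitochondrially encoded genes 10 were at least 25% higher in 60TM, against 21.9% of all genes, and their median log2 ratio was 0.44. Among them were mt-Cytb at 5950 CPM in 60TM and 4184 CPM in WT (1.42) and mt-Co1 at 7288 CPM in 60TM and 5373 CPM in WT (1.36). In cells selected for 5% or less mitochondrial UMIs, the number of nuclear members counted as lower was 3 in place of 10.

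Radial glia-like stem cells had a median log2 ratio of -0.11, against -0.05 for all genes. Besides complex II, Cox4i2, the form of subunit 4 known from lung, was lower, at 24.3 CPM in 60TM (76 UMIs) and 54.7 CPM in WT (63 UMIs), a ratio of 0.443 (0.313 to 0.629), and Ndufs8 and Ndufs1 had 0.767 and 0.782. Ndufc2 was at 1630 CPM in 60TM and 1556 CPM in WT (1.05, 0.992 to 1.11). The number counted as lower, 9 here, was 1 among genes with at least 1000 UMIs and 15 with cells thinned to 2000 UMIs.

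Neurons had the widest lean towards 60TM, on 91 cells in 60TM and 69 in WT. The median log2 ratio was 0.29, against -0.02 for all genes, and 43 of 78 members had an interval above 1. Cox8a stood at 987 CPM in 60TM and 671 CPM in WT (1.47, 1.34 to 1.62), Ndufv2, a core subunit of complex I, at 184 CPM in 60TM and 117 CPM in WT (1.57, 1.252 to 1.97), and Atp5o, which joins the head of complex V to its stalk, at 377 CPM in 60TM and 251 CPM in WT (1.499, 1.29 to 1.75). Atp5b differed by less than counting error (514 CPM in 60TM and 505 CPM in WT). Cox6a2 was lower, at 42.8 CPM in 60TM (61 UMIs) and 65.4 CPM in WT (63 UMIs), a ratio of 0.654 (0.452 to 0.945). The kinds of neurons differed between the libraries: the interneuron markers summed to 885 CPM in 60TM and 4117 CPM in WT, of which Sst had 2 UMIs in 60TM and 1772 in WT, while Nrgn, of excitatory neurons, stood at 2417 CPM in 60TM and 1168 CPM in WT. Among neurons with fewer than 2 UMIs of Gad1, Gad2 and Slc32a1 (61 cells in 60TM and 47 in WT) the median was 0.86, among the others (30 cells in 60TM and 22 in WT) it was 0.35 and Cox6a2 was 1.01, and with cells thinned to 2000 UMIs the median was 0.00016.

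Pericytes, with 56 cells in 60TM and 69 in WT, gave the largest single ratios and the least stable ones. Ndufa4, the common form of this complex IV subunit, stood at 211 CPM in 60TM (39 UMIs) and 571 CPM in WT (187 UMIs), a ratio of 0.370 (0.255 to 0.524), and Cox4i2 at 921 CPM in 60TM (170 UMIs) and 541 CPM in WT (177 UMIs), a ratio of 1.70 (1.37 to 2.11). Fibroblast markers, of another cell type, summed to 1349 CPM in 60TM and 3670 CPM in WT pericytes, with all 5 genes lower in 60TM. Among pericytes with no fibroblast UMI (28 cells in 60TM and 27 in WT) Ndufa4 was at 143 CPM in 60TM (10 UMIs) and 32.0 CPM in WT (2 UMIs), and Cox4i2 at 1133 CPM in 60TM and 959 CPM in WT. When cells were placed by their highest marker score the Ndufa4 ratio was 1.35 and the Cox4i2 ratio 0.683, so no direction is given for either gene.

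In the remaining classes 1 member at each end was named by the interval bound nearest to 1. Border macrophages had Uqcrq at 305 CPM in 60TM and 220 CPM in WT (1.39, 1.09 to 1.78) and Sdhc at 70.03 CPM in 60TM and 117 CPM in WT (0.60, 0.40 to 0.90). Endothelial cells had Cox7a2l at 387 CPM in 60TM and 287 CPM in WT (1.35, 1.14 to 1.6) and Ndufa8 at 235 CPM in 60TM and 332 CPM in WT (0.709, 0.594 to 0.849). Oligodendrocyte precursors had Uqcrfs1 at 169 CPM in 60TM and 128 CPM in WT (1.32, 1.04 to 1.69). In committed oligodendrocyte precursors these were Cox7b (1.29) and Uqcrb (0.837), and in immature neurons Cox7b (1.2) and Atp5e (0.845), where Sdhd had a lower ratio (0.701) with a wider interval. Dividing cells had Ndufs5 at the upper end (1.17) and Sdhd at the lower (0.569), and Cajal-Retzius cells had Ndufb7 (1.26) and Cox7a2 (0.842).

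Some subunits of complex IV have a second gene known from a single tissue or condition, and the levels of these genes differed widely between cell classes in both libraries. Cox8b, a form of subunit 8 known from heart and skeletal muscle of rodents, stood at 436 CPM (417 to 455) in 60TM and 445 CPM (405 to 487) in WT choroid plexus cells, where it made up 9.52% of Cox8a and Cox8b UMIs in 60TM and 8.46% in WT. In every other class it was at 3.47 CPM or less, and in astrocytes at 1.98 CPM in 60TM (30 UMIs) and 3.39 CPM in WT (20 UMIs). Cox8b was among the 10 leading genes of the choroid plexus cluster, so its level there describes the cluster. Cox6b2, known from testis, was also highest in the choroid plexus, at 290 CPM in 60TM and 334 CPM in WT (19.8% of Cox6b1 and Cox6b2 UMIs in 60TM and 20.0% in WT). Ependymal cells, the ciliated cells lining the ventricles, followed with 76.5 CPM in 60TM (42 cells) and 155 CPM in WT (131 cells), too few in 60TM for a comparison. There Cox6b2 made up 14.3% of the pair's UMIs in 60TM and 21.9% in WT. Cox7a1 followed the same order, with 105 CPM in 60TM and 156 CPM in WT in the choroid plexus and 35.1 CPM in 60TM and 80.5 CPM in WT in ependymal cells. As a share of Cox7a1 and Cox7a2 UMIs that was 7.503% in 60TM and 9.63% in WT in the choroid plexus, and 7.56% in 60TM and 15.6% in WT in ependymal cells.

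Cox8b and Cox8a encode the same subunit, and the DNA before their starts is shown because the first is high in 1 class and the second is found in all. The stretches hold the 250 bases before the RefSeq start at chr7:140900447-140900696 and chr19:7217617-7217866, both on the minus strand of GRCm38.p6, run 5′ to 3′ and carry no capitals, since none of the 6 motifs searched lies within them.
Cox8b: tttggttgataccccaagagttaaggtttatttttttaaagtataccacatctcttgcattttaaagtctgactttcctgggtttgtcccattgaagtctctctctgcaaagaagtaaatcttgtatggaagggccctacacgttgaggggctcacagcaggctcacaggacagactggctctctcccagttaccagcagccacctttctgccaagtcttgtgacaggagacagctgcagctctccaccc
Cox8a: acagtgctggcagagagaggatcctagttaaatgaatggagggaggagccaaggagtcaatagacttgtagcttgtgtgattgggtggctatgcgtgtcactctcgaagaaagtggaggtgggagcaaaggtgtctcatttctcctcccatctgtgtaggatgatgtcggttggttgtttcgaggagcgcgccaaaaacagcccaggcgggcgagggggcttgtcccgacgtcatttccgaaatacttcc
In the 300 bases of the full window, which run 50 bases past the start, Cox8b held the TATA letters and Cox8a the GABPA letters. The GC content of the printed stretch was 47.2% for Cox8b and 52.8% for Cox8a.

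The levels of 2 genes stood out in pericytes. Ndufa4l2, a paralogue of Ndufa4 that is known to be induced by hypoxia, stood at 1696 CPM in 60TM and 1070 CPM in WT, and made up 88.9% of Ndufa4 and Ndufa4l2 UMIs in 60TM and 65.2% in WT pericytes. Cox4i2 made up 48.7% of Cox4i1 and Cox4i2 UMIs in 60TM and 33.7% in WT. Of the pericytes, 28 cells in 60TM and 27 in WT had no fibroblast UMI. In those cells Ndufa4l2 stood at 1764 CPM in 60TM and 1838 CPM in WT. Cox4i2 stood there at 1133 CPM in 60TM and 959 CPM in WT. No direction between the libraries is therefore given for the levels and shares of Ndufa4l2 and Cox4i2 in pericytes. An unnamed cluster that carried pericyte and endothelial markers (118 cells in 60TM and 34 in WT) held both genes too, with Ndufa4l2 at 558 CPM in 60TM and 692 CPM in WT and Cox4i2 at 278 CPM in 60TM and 389 CPM in WT. Ndufa4l2 was among the 10 leading genes of this cluster and of the pericyte cluster, so its level in both describes the clusters. Elsewhere Ndufa4l2 was next highest in endothelial cells, at 58.9 CPM in 60TM and 47.8 CPM in WT. Cox6a2 was highest in neurons, where it made up 13.7% of Cox6a1 and Cox6a2 UMIs in 60TM and 22.0% in WT. Cox7a2l was found in all classes, with 105 CPM in 60TM and 100.1 CPM in WT astrocytes and 379 CPM in 60TM and 353 CPM in WT microglia. Cox7b2 was found mainly in astrocytes (86 UMIs in 60TM and 49 in WT), at 1.67% of Cox7b and Cox7b2 UMIs in 60TM and 1.98% in WT.

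**Figure D5:**
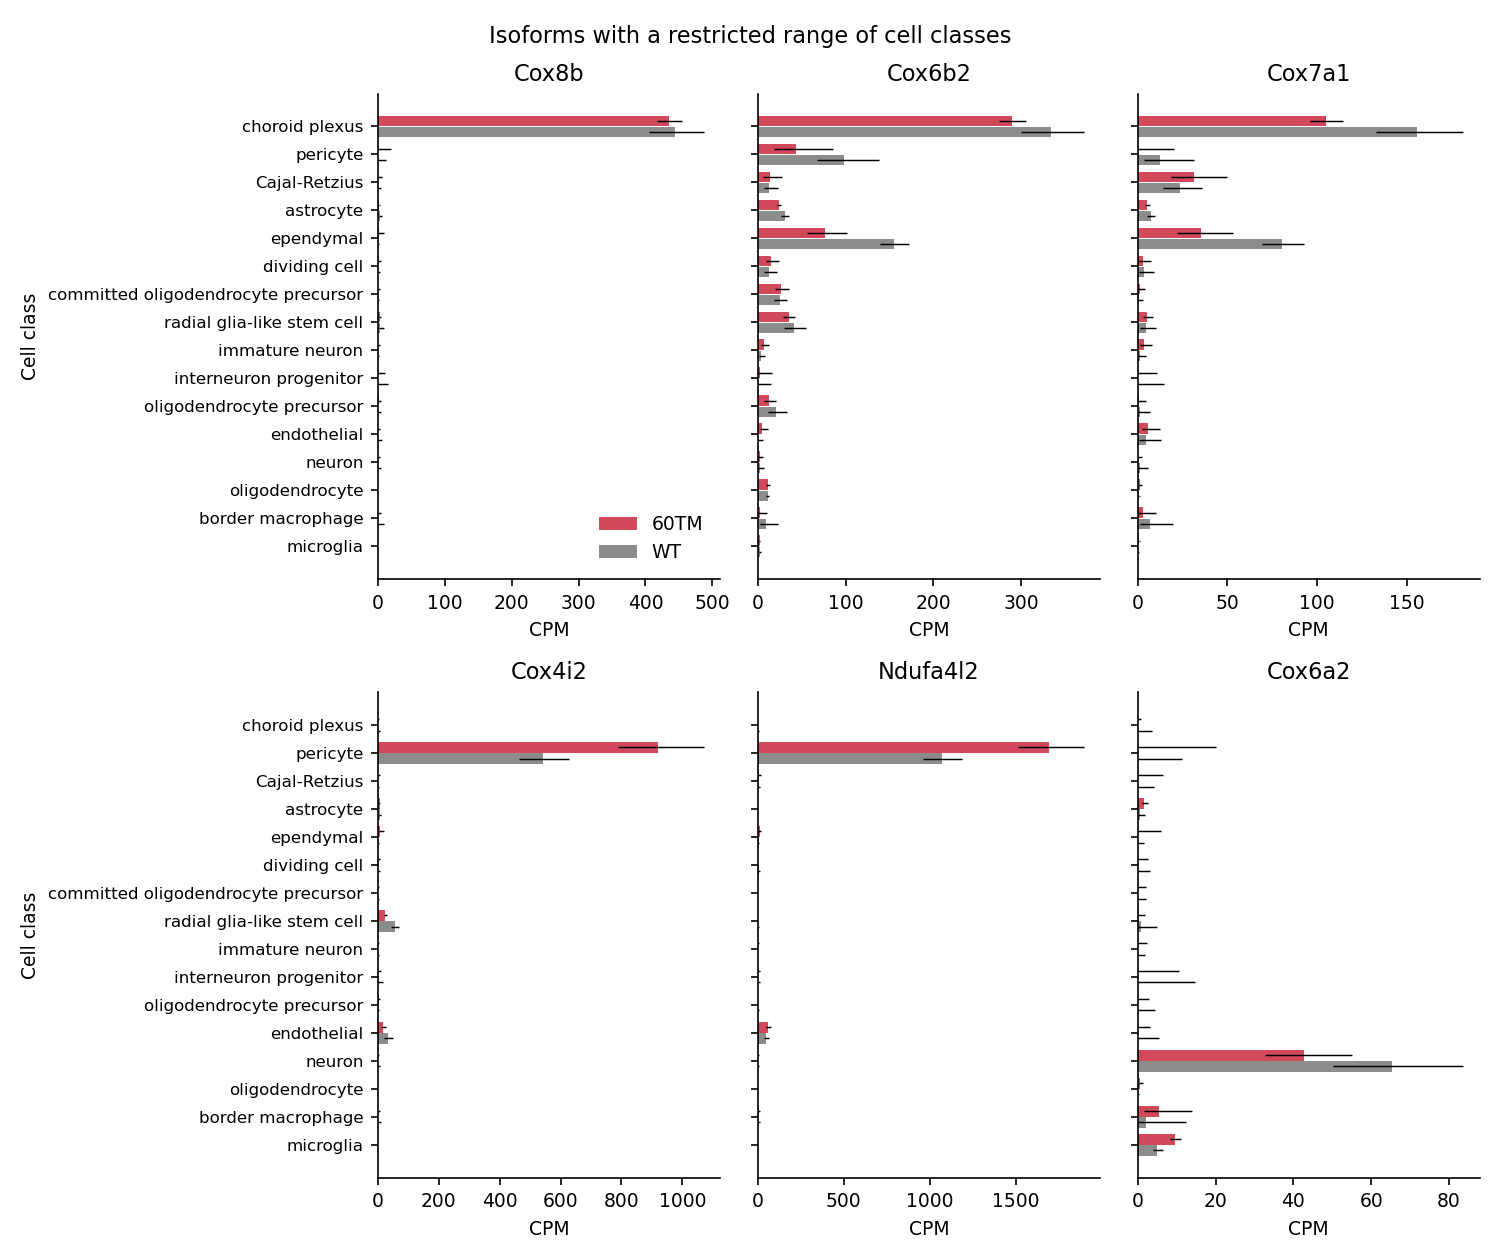
CPM of 6 isoform genes by cell class, with 60TM as the upper and WT as the lower bar and 95% counting intervals. Cox8b stands out in the choroid plexus (436 CPM in 60TM and 445 CPM in WT), Ndufa4l2 and Cox4i2 in pericytes, and Cox6a2 in neurons (42.8 CPM in 60TM and 65.4 CPM in WT).

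The genes Atp5g1, Atp5g2 and Atp5g3 encode the same mature c subunit, and classes used them in different proportions. Atp5g1 led in the choroid plexus (2632 CPM in 60TM and 3140 CPM in WT, with Atp5g2 at 636 CPM in 60TM and 742 CPM in WT). Atp5g2 led in microglia (403 CPM in 60TM and 386 CPM in WT, with Atp5g1 at 181 CPM in 60TM and 171 CPM in WT) and in committed oligodendrocyte precursors (738 CPM in 60TM and 770 CPM in WT). In neurons Atp5g1 (555 CPM in 60TM and 396 CPM in WT) and Atp5g3 (419 CPM in 60TM and 304 CPM in WT) stood above Atp5g2 (232 CPM in 60TM and 204 CPM in WT). Astrocytes used all 3 at similar levels, between 292 and 434 CPM in 60TM and between 295 and 428 CPM in WT. These orders were the same in both libraries for the choroid plexus, microglia and neurons.

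Other genes of mitochondrial energy metabolism were described from fixed lists in astrocytes, where 12.6% of all genes were counted as higher and 21.8% as lower, with a median log2 ratio of -0.08. The 13 mitochondrially encoded subunits had a median log2 ratio of 0.22, with 4 counted as higher and 0 lower, the opposite direction to the nuclear-encoded members. mt-Co1 stood at 7262 CPM in 60TM and 6049 CPM in WT (1.201), mt-Nd6 at 152 CPM in 60TM and 92.4 CPM in WT (1.64) and mt-Nd1 at 2668 CPM in 60TM and 2694 CPM in WT (0.991). Assembly factors of the complexes had a median of -0.10, with 9 of 45 lower and 1 higher, and genes of the tricarboxylic acid cycle and pyruvate dehydrogenase one of -0.17, with 3 of 19 lower, among them citrate synthase Cs (126 CPM in 60TM and 175 CPM in WT, 0.721). Regulators of mitochondrial biogenesis had the lowest median of these lists, -0.33, with 5 of 10 lower and 0 higher. Ppargc1a, the coactivator PGC-1 alpha, stood at 107 CPM in 60TM and 145 CPM in WT (0.739, 0.680 to 0.804), Nrf1 at 14.3 CPM in 60TM (217 UMIs) and 22.9 CPM in WT (135 UMIs) (0.626, 0.503 to 0.782) and Esrra at 27.8 CPM in 60TM and 37.1 CPM in WT (0.749), while Tfam, which packs and transcribes mitochondrial DNA, had 0.961 (0.805 to 1.15). The shares counted as lower in the assembly factor and tricarboxylic acid cycle lists were below that of all genes.

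The carriers of electrons and nucleotides had a median of -0.09, near that of all genes, with 3 of 18 lower, a share also below that of all genes, and 1 higher. Among the lower ones was cytochrome c, Cycs, at 180 CPM in 60TM and 228 CPM in WT (0.787). Import genes (median 0.08, 0 of 20 past the limit) and mitochondrial chaperones and proteases (0.11, 0 of 12) leaned the other way, and glycolysis was near the level of all genes (-0.02, 1 of 22 lower and 3 higher). Of the mitochondrial antioxidants Gpx4, a glutathione peroxidase that protects membranes, was higher, at 858 CPM in 60TM and 511 CPM in WT (1.68, 1.61 to 1.75), with a list median of 0.00. In neurons the glycolysis list had a median of 0.37, with 11 of 16 higher and 1 lower, against 13% and 17.1% of all neuron genes. The kinds of neurons differed between the libraries (Sst had 2 UMIs in 60TM and 1772 in WT), and the neuron median of the OXPHOS members was 0.00016 with cells thinned to 2000 UMIs; the glycolysis list was not recomputed with thinned cells. Ldha stood there at 155 CPM in 60TM and 88.3 CPM in WT (1.76). In microglia and oligodendrocytes the tricarboxylic acid cycle genes had medians of 0.01 and 0.00, with 0 of 19 and 0 of 18 past the limit. In radial glia-like stem cells the tricarboxylic acid cycle list had a median of -0.18, with 5 of 18 lower and 0 higher, against 16.8% and 11.9% of all genes.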

How the data were processed

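Hippocampal cells of 3 pooled mice per genotype were profiled with a 10x 3' kit in 1 library each. Per the file headers and the submitters' processing notes, the authors made the deposited raw UMI counts per gene and called cell with Cell Ranger 5.0.0 and GRCm38; the deposited gene and barcode lists hold other text, with no measured values. The annotation release and the counting of introns are not given in the sources used here.

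The rest was computed with python 3.11.15, numpy 2.4.6, scipy 1.17.1, pandas 2.3.3, scanpy 1.11.5 and leidenalg 0.10.2. Barcodes with under 500 genes or over 15% mitochondrial UMIs were removed, as were the highest Scrublet scores at a rate of 0.8% for each 1000 barcodes (610 in 60TM and 377 in WT). Counts were scaled to 10000, log-transformed, reduced to 2000 variable genes (3 of them members) and 30 components, and clustered by Leiden at resolution 1 on 15 neighbours. A cluster took a class name where at least 3 markers of that class, their median and the depth and leading genes of the cluster met a rule set after the clusters were seen; 144 markers of 23 classes were used. Clusters made without the members kept every result they could give within its tolerance. Their named astrocyte clusters were led by Agt (692 cells in 60TM and 850 in WT) and by Lcn2 (1051 cells in 60TM and 52 in WT). None was led by Hsd11b1, so the division of astrocytes described above was not repeated by them.

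Counts were summed over the cells of a class and divided by its total. Ratio intervals are exact conditional binomial, CPM intervals exact Poisson and share intervals Clopper-Pearson at 95%, and were tested on simulated counts. Of 16 classes, 14 had at least 50 cells in each library and were compared. No test was made between genotypes. The members, lists and alternatives were chosen with earlier results of these data known, and 7 alternatives were added after seeing the files. Genes named are the highest and lowest members by the interval bound nearest to 1 (6 each in astrocytes, 4 each in microglia and oligodendrocytes, 1 each elsewhere), the highest of each complex, all of complex II, core complex I subunits and isoform genes; others named in passing were chosen after their values were seen. The values of 1 member are not reported here. Alternatives varied the scaling, the UMI minimum, the weights, the depth, the cell filters, doublets and class assignment. Promoter windows were searched for exact letters on both strands.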

Additional observations from a re-analysis of the deposited data

How the results depend on the processing

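No paired analysis was possible because each genotype is 1 library. Of the results that answer a comparison, 355 values moved by less than their tolerance under the alternatives and 45 moved by more. The cause was not tested. The tolerance differed between results, and a value within it did not always keep its sign. The pericyte median of -0.21 stayed within its tolerance at 0.10 with doublets kept and at 0.19 without fibroblast UMIs. The complex II medians kept their sign under every alternative in astrocytes (-0.31 to -0.16), microglia (-0.32 to -0.16), oligodendrocytes (-0.16 to -0.12), radial glia-like stem cells (-0.51 to -0.40) and the choroid plexus (-0.35 to -0.10, with -0.098 when thinned to 2000 UMIs).

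In astrocytes, scaling by the median ratio of all genes gave medians of -0.096 (complex III), -0.068 (IV) and -0.080 (V) and 2 lower members. Scaling by trimmed means gave -0.0245 (all), 0.0092 (I), -0.085 (III), -0.057 (IV) and -0.069 (V) and 1 lower member. A minimum of 1000 UMIs gave -0.061 (IV) and 4 lower members, per-cell means -0.073 (IV) and -0.081 (V), thinning -0.046 (V), and leaving out the Lcn2 cluster -0.17 (I). The Hsd11b1 cluster had a median of 0.063 under median-ratio scaling, and the 60TM Lcn2 level was 1.05 times that of the other astrocytes when cells were divided by Lcn2 UMIs.

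Lower members in the choroid plexus numbered 5 under trimmed means, 5 without mitochondrial totals, 6 with per-cell means and 3 under the stricter mitochondrial limit, and over all alternatives from 3 to 15, against 10 as reported; 15 was with thinning. In radial glia-like stem cells they numbered 4 under trimmed means, 1 at 1000 UMIs and 15 when thinned. In pericytes they numbered 0 at 1000 UMIs, where no member was left, 2 with doublets kept, 8 by marker score and 0 of 6 without fibroblast UMIs, against 21 as reported and 30 under trimmed means, and the pericyte median was 0.10 with doublets kept and 0.19 without fibroblast UMIs. Higher members in neurons numbered 11 of 19 at 1000 UMIs, 21 when thinned (median 0.00016), 51 under the stricter mitochondrial limit, 69 by marker score (median 0.66) and 65 with fewer than 2 Gad1, Gad2 and Slc32a1 UMIs (0.86).

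Choroid plexus over microglia was 5.90, 5.95, 6.10 and 5.41 in 60TM with per-cell means, thinning, 5% mitochondrial UMIs and marker scores, and 6.89, 6.93 and 6.93 in WT with the first 3. Of 704 values of single-gene ratios under the alternatives, 18, of 11 genes within a class, stood on the other side of 1. Those that differed by at least 25% as reported were Cox4i2 (0.683) and Ndufa4 (1.35) in pericytes by marker score, and Cox6a2 (1.01) in neurons with at least 2 Gad UMIs. The others were nearer to 1: in astrocytes Atp5g1 (0.987), Uqcrq (0.885), Cox4i1 (0.910), Ndufa7 (0.896) and Ndufc2 (0.998) without the Lcn2 cluster, the last 4 of these also with equal weight for the other clusters, Cox4i1 (0.952) and Ndufa7 (0.958) at 5% mitochondrial UMIs, and, with thinning, Cox4i1 (0.983) and Sdhb (1.01) in astrocytes, Sdhc (1.07) in microglia and Ndufa1 (1.003) in oligodendrocytes. Of the medians, those of complex I in astrocytes and of all members in Cajal-Retzius cells, committed oligodendrocyte precursors, oligodendrocytes, immature neurons and pericytes changed sign under at least 1 alternative. The median of the Hsd11b1 astrocyte cluster did so too. Values of neurons, pericytes, Cajal-Retzius cells and committed oligodendrocyte precursors rest on under 100 cells in each library. Those of the choroid plexus, border macrophages and dividing cells rest on under 100 cells in WT. Thinning left out 15 astrocytes in 60TM and 29 in WT, 28 microglia in each, and 14 neurons in 60TM and 18 in WT.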

Other observations

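The 7 clusters that took no class name also held nuclear-encoded OXPHOS mRNA at levels that differed widely. A cluster of shallow cells with astrocyte markers (250 cells in 60TM and 68 in WT) had the highest share outside the choroid plexus, with 4.15% of UMIs in 60TM and 5.18% in WT. Shallow cells with microglial markers (212 cells in 60TM and 85 in WT) had 2.08% in 60TM and 1.94% in WT, above the 1.30% in 60TM and 1.249% in WT of named microglia. A cluster found in 60TM alone, led by Ccl2 and Cxcl10 (39 cells), had 1.61%. The lowest shares were in 2 unnamed clusters. The first (113 cells in 60TM and 132 in WT) had 0.61% in 60TM and 0.54% in WT. It too held shallow cells with astrocyte markers, so such cells stood at both ends of the range. The second (24 cells in 60TM and 42 in WT) had 0.65% in 60TM and 0.91% in WT. It took 10.7% of its UMIs in 60TM and 10.9% in WT from mitochondrially encoded genes.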
